A study of Mus musculus with 3 samples.

Results

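The miRNAs examined here were 7 mature products of 5 hairpins at imprinted genes of the mouse: miR-298-5p and miR-296-5p near Gnas, both arms of miR-335 in Mest, miR-483-3p in Igf2 and both arms of miR-675 in H19. They were picked by their accession numbers, and they made up 7 of the 2049 rows of the count table. Small RNA was sequenced from hearts of wild type C57BL/6 mice at postnatal day 1 (P1), postnatal day 7 (P7) and postnatal day 28 (P28), with 1 library at each age. No altered gene and no treatment is stated for these groups. The labels call the tissue hearts, the study's text speaks of ventricles, and neither says how many animals went into a library. The set was assembled with its levels in these libraries already known, and miR-298-5p had the lowest ratio of P28 to P1 among the 317 rows abundant enough to be compared, so all values below are a description and carry no test.

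An imprinted gene is read mainly from the copy inherited from one parent. Igf2 (a fetal growth factor) and Mest are read from the paternal copy, H19 is a noncoding RNA read from the maternal copy, and Gnas, which encodes the stimulatory G protein alpha subunit, lies in a locus with transcripts of either parental origin. Many imprinted genes act on growth before and soon after birth, and most mouse cardiomyocytes leave the cell cycle in the first week after birth. A miRNA is cut from a hairpin, either arm of which can be kept, and it recognises messenger RNAs mainly through its seed, which is bases 2 to 8 of the mature strand.

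The 7 mature sequences are given 5′ to 3′ to show how their seeds, in capitals, differ. They are from RefSeq, matched by name in the GRCm38.p6 table.
miR-298-5p: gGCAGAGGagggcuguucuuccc
miR-296-5p: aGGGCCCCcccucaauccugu
miR-335-5p: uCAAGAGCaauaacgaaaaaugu
miR-335-3p: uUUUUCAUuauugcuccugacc
miR-483-3p: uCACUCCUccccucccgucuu
miR-675-5p: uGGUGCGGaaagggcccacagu
miR-675-3p: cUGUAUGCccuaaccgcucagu

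The set held 7 different seeds, and 0 other mature miRNAs among the 1679 names of that table had a seed in common with any of them. On the shorter stretch of bases 2 to 7, miR-296-5p matched miR-5621-3p, miR-335-5p matched miR-7646-5p, miR-335-3p matched miR-6986-3p and miR-483-3p matched miR-3110-3p. Each sequence was found in 0 hairpins other than its own. Base composition separated the Mest pair from the rest. The GC content was 30.4% in miR-335-5p and 36.4% in miR-335-3p, against a median of 52.2% over 1674 distinct mature sequences. It was 54.5% in miR-675-3p and between 61.9% and 66.7% in the other 4. miR-296-5p carried an unbroken run of 7 C, and miR-483-3p a run of 13 pyrimidines. A first base of U, the base most often found at that place, was present in 4 of the 7 sequences and in 41.0% of the 1674.

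The hairpins fell into 3 chromosomal regions (GRCm38, the build called mm10 in the processing notes). The mature miR-298-5p is at chr2:174267553-174267575 and miR-296-5p at chr2:174267093-174267113, both on the minus strand, with 378 bases between their hairpins. In GENCODE M21 neither hairpin overlapped another annotated gene. The nearest parts of the Gnas locus were the antisense RNA Nespas, 13.7 kb away on the same strand, and Gnas itself, 16.7 kb away on the opposite strand. The arms of miR-335, at chr6:30741314-30741336 and chr6:30741354-30741375 on the plus strand, lie in an intron of all 7 Mest transcripts that span the hairpin. miR-483-3p, at chr7:142654932-142654952 on the minus strand, lies in an intron of all 7 Igf2 transcripts that span it. miR-675-5p, at chr7:142577112-142577133, and miR-675-3p, at chr7:142577078-142577099, lie on the minus strand within an exon of H19 in 3 of the 4 transcripts that span the hairpin. The hairpins of miR-675 and miR-483 are 77.8 kb apart.

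The P1 library summed to 1944237 counts, the P7 library to 2465680 and the P28 library to 2842526. Levels are given as CPM, a scale on which each library sums to 1000000, with 95% Wilson intervals. These intervals cover counting error only, since 1 library per age leaves the variation between hearts unmeasured. Age cannot be told apart from any other difference between the 3 libraries, and in whole tissue fewer cells of a type and less RNA per cell cannot be told apart either. A row of the table was compared between ages when it averaged 10 CPM or more across the 3 ages, which 317 rows did. They include stem-loop rows and several rows of some accession numbers, and some have the same ratios as another row. With stem-loop rows left out and the rows of an accession summed, 282 passed. Of the 7 miRNAs, 5 passed, and both arms of miR-675 did not. The table gives accession numbers without names. The names of the 7 rows, on which their sequences and positions rest, came with the selection of the set and were not checked against a file that pairs them. The other rows were not named, so marker miRNAs of heart muscle or of other cell types were not analysed here, and the labelled tissue was not checked.

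Together the 7 miRNAs had 5710 reads in the P1 library, 5345 in the P7 library and 848 in the P28 library. As a level this was 2937 CPM (2862 to 3014), then 2168 CPM (2110 to 2227) and 298 CPM (279 to 319), so that the P28 level was 9.84-fold lower than the P1 level. Most of these reads came from miR-335-5p, which supplied 64.2% of them in P1 hearts, 74.0% in P7 hearts and 82.4% in P28 hearts.

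**Figure D1:**
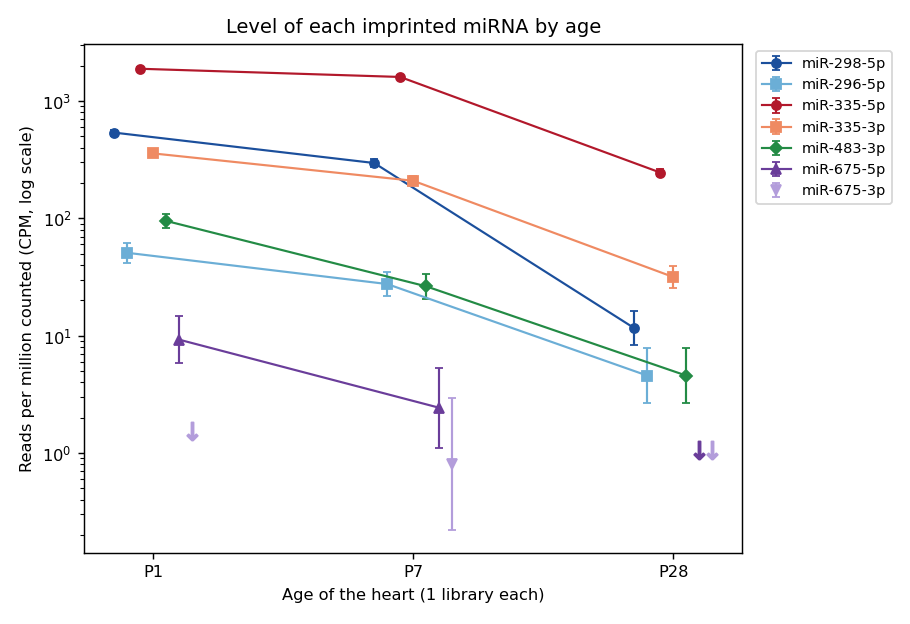
Level of each miRNA (CPM, log scale) in the P1, P7 and P28 libraries, with 95% Wilson intervals for counting error and with lines joining the ages at which reads were found. Arrows mark 0 reads, drawn at the CPM of 3 reads and joined to no line. The 6 lines fall from left to right, miR-675-3p has reads at P7 only and no line, and miR-298-5p crosses below miR-335-3p between P7 and P28.

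The pair near Gnas was unequal in level. miR-298-5p (MIMAT0000376), the stronger of the 2, had 1047 reads in the P1 library, 731 in the P7 library and 33 in the P28 library. These were 539 CPM (507 to 572), 296 CPM (276 to 319) and 11.6 CPM (8.27 to 16.3). Its P1 and P7 levels were within 2-fold of each other, and the P28 level stood far below both, 46.4-fold lower than at P1 and 25.5-fold lower than at P7. Ranked by reads, it was number 89 of the 729 rows with a read in the youngest library, 113 of 787 in the next and 267 of 669 in the oldest. miR-296-5p (MIMAT0000374) had 99, 68 and 13 reads, or 50.9 CPM (41.8 to 62.0), 27.6 CPM (21.8 to 35.0) and 4.57 CPM (2.67 to 7.83). Its level was 1.85-fold lower at P7 and 11.1-fold lower at P28 than at P1.

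miR-335, cut from an intron of Mest, was the most abundant hairpin of the set. miR-335-5p (MIMAT0000766) had 3665 reads in the P1 library, 3957 in the P7 library and 699 in the P28 library, which were 1885 CPM (1825 to 1947), 1605 CPM (1556 to 1656) and 246 CPM (228 to 265). Its level was 1.17-fold lower at P7 than at P1, and 7.67-fold lower at P28 than at P1. miR-335-3p (MIMAT0004704) had 696, 516 and 90 reads, at 358 CPM (332 to 386), 209 CPM (192 to 228) and 31.7 CPM (25.8 to 38.9). Its level was 1.71-fold lower at P7 and 11.3-fold lower at P28 than at P1, so this arm was the further below its P1 level at both ages.

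miR-483-3p (MIMAT0003120), cut from an intron of Igf2, had 185 reads in the P1 library, 65 in the P7 library and 13 in the P28 library. Its level was 95.2 CPM (82.4 to 110), 26.4 CPM (20.7 to 33.6) and 4.57 CPM (2.67 to 7.83). It was the one of the 5 miRNAs above the abundance filter that was over 2-fold lower already at P7, by 3.61-fold, and it was 20.8-fold lower than at P1 by P28.

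miR-675, which is cut out of H19 RNA itself, was close to the detection limit. miR-675-5p (MIMAT0003725) had 18, 6 and 0 reads in age order, or 9.26 CPM (5.86 to 14.6) and 2.43 CPM (1.12 to 5.31) at the first 2 ages. At the depth of the P28 library, 0 reads allow a level of up to 1.06 CPM (3 reads), so against that limit, and with the 18 reads of P1 taken as exact, its level there was at least 8.77-fold lower than at P1. With the counting error of both libraries, the log2 ratio was at most -2.68. Had the P1 level held, 26.3 reads would have been counted at P28. miR-675-3p (MIMAT0003726) had 2 reads in the P7 library and 0 in the others. Its level was therefore at most 1.54 CPM at P1 and 1.06 CPM at P28, and no direction can be given for it at this depth.

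The order of the levels changed with age. A CPM ranks reads, and small RNA library steps do not capture every sequence equally, so the order is one of reads. At P1 it was miR-335-5p, miR-298-5p, miR-335-3p, miR-483-3p, miR-296-5p and miR-675-5p, with no overlap between the intervals of neighbours. At P7 miR-296-5p and miR-483-3p, at 27.6 and 26.4 CPM, had overlapping intervals, and the rest of the order was as at P1. At P28 miR-335-3p stood above miR-298-5p, 31.7 against 11.6 CPM with separate intervals, while miR-296-5p and miR-483-3p had 13 reads each.

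The first comparison, P7 with P1, covers the week in which the regenerative capacity of the mouse heart is lost. Ratios are log2 ratios of CPM after adding 0.5 reads to each count, with 95% Clopper-Pearson intervals for counting error in parentheses, and a row was called higher or lower when its ratio was at least 2-fold. Over all rows the median log2 ratio was 0.02, 11.7% of the 317 rows were called lower and 10.4% were called higher. Of the 5 imprinted miRNAs that passed the filter, 1 was called lower and 0 were called higher. That one was miR-483-3p, with a log2 ratio of -1.84 (-2.28 to -1.44), and 3 of the 317 rows had a lower ratio. The other log2 ratios were -0.88 (-1.35 to -0.42) for miR-296-5p, -0.86 (-0.999 to -0.72) for miR-298-5p, -0.77 (-0.94 to -0.61) for miR-335-3p and -0.23 (-0.30 to -0.17) for miR-335-5p. All 5 values were below 0, and the median of the 5 was -0.86.

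At P28 against P1, all 5 were called lower. Of these, miR-296-5p and miR-483-3p were at 4.57 CPM at P28, below the 10 CPM cut, and passed the filter through their levels at P1 and P7. A filter met in this way favours a lower call at P28, for them and for any such row among the 317. Over all rows, 40.7% were called lower and 12.3% higher, with a median log2 ratio of -0.64. miR-298-5p had a log2 ratio of -5.51 (-6.08 to -5.04), and 0 of the 317 rows were lower. miR-483-3p followed at -4.33 (-5.32 to -3.57), with 8 rows lower. miR-335-3p was at -3.49 (-3.83 to -3.18), miR-296-5p at -3.43 (-4.44 to -2.64) and miR-335-5p at -2.94 (-3.06 to -2.82), with 22, 23 and 31 rows lower. The median of the 5 was -3.49. Measured from the median row, the log2 ratios ran from -4.88 for miR-298-5p to -2.30 for miR-335-5p.

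The last comparison, P28 against P7, has a library in common with each of the others and covers the weeks of growth that follow. All 5 were called lower, where 39.1% of all rows were called lower, 3.15% higher and the median log2 ratio was -0.64. Here too, miR-296-5p and miR-483-3p had passed the filter only through their levels at the younger ages. For 4 of the 5 the values were close together. They were -2.72 (-3.06 to -2.40) for miR-335-3p, -2.71 (-2.82 to -2.59) for miR-335-5p, -2.55 (-3.57 to -1.72) for miR-296-5p and -2.48 (-3.51 to -1.65) for miR-483-3p. miR-298-5p stood apart at -4.65 (-5.22 to -4.17), with 1 row lower. All 5 were lower at each of the successive steps, as were 38.5% of all rows, and miR-483-3p was at least 2-fold lower at each step, as were 8.52%.

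**Figure D2:**
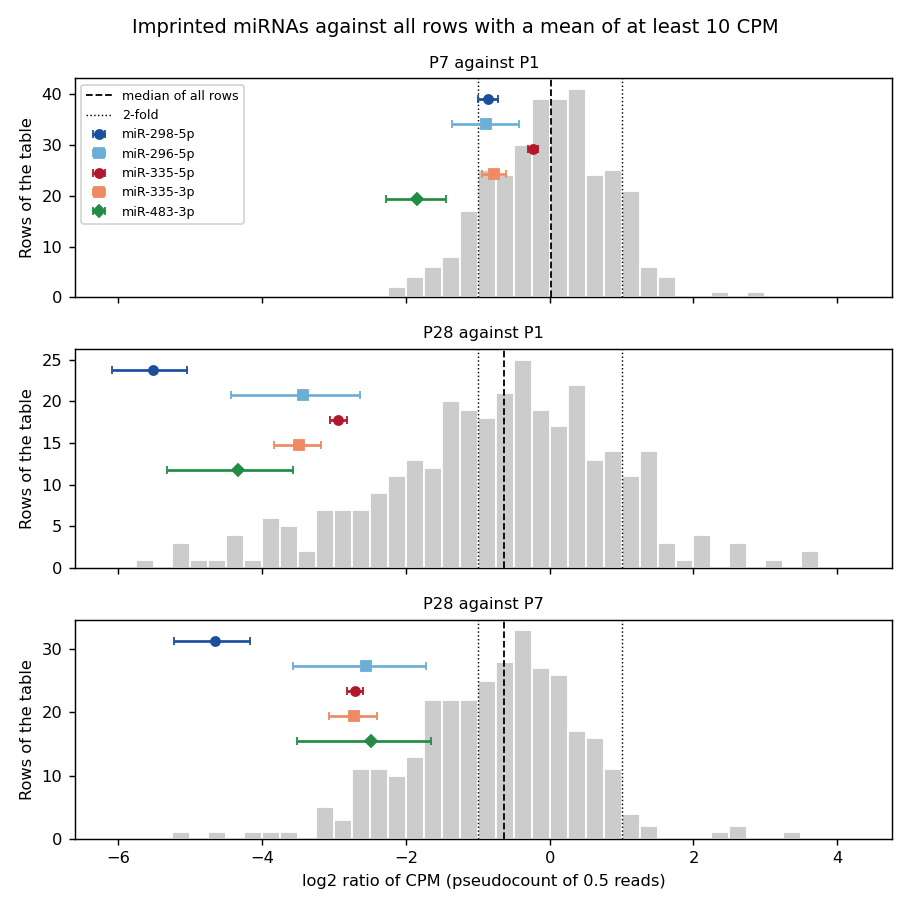
Log2 ratios of CPM (horizontal axis) in the 3 comparisons, with the 317 rows that averaged 10 CPM or more drawn as grey histograms. Coloured points are the 5 imprinted miRNAs with 95% Clopper-Pearson intervals, their height carries no value, the dashed line is the median row and dotted lines mark 2-fold. At P28 against P1 all 5 lie at -2.94 or below, left of a median of -0.64.

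The scale of the libraries moved the comparisons with P28 as a whole. Relative to library totals, 23.2% of the called rows were higher when P28 was set against P1, and 7.46% when it was set against P7. With TMM scaling these shares became 47.8% and 35.7%, and with DESeq2 size factors 47.8% and 42.2%. At P7 against P1 it was 47.1%, and it became 62.2% when the 10 most abundant rows were left out of the totals. TMM moved the median log2 ratio by 0.62 in the comparison with P1 and by 0.56 in that with P7. Over all 3 rescalings, the larger pseudocount and the summing of rows, the 5 log2 ratios at P28 against P1 stayed between -5.56 and -2.31. At P28 against P7 they stayed between -4.67 and -1.83. With DESeq2 size factors, P28 against P1 gave -4.88 for miR-298-5p, -2.86 for miR-335-3p and -2.31 for miR-335-5p. These values lie outside the counting intervals by library totals given above, while those of miR-296-5p and miR-483-3p lie within theirs.

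In these libraries the time course was not the same for each miRNA. Both steps of a miRNA use the same P7 library, so their intervals are not independent. An error at P7 would make a step steeper and the other flatter. The log2 change was divided by the days between the libraries, which were 6 days for the first step and 21 for the second. miR-483-3p fell by 0.307 per day (interval of the change -0.380 to -0.239) up to P7, then by 0.118 per day (-0.167 to -0.0788). miR-335-5p went the other way, at -0.0387 per day (-0.0496 to -0.0278) and then -0.129 per day (-0.134 to -0.123). miR-298-5p was likewise steeper in the second step, at -0.143 per day (-0.167 to -0.121) and then -0.222 per day (-0.249 to -0.199). For these 3 the intervals of the 2 steps did not overlap when scaled by library totals, the only scale on which they were made. With DESeq2 size factors the values of miR-298-5p were closer, at -0.147 and -0.191 per day, and its intervals moved by the same amounts would overlap. For miR-335-3p the values were -0.129 and -0.129 per day, and for miR-296-5p they were -0.147 and -0.121 per day with overlapping intervals. The step with the steeper fall was the same under all 5 alternatives for miR-483-3p, miR-335-5p, miR-298-5p and miR-296-5p, and it changed for miR-335-3p.

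**Figure D3:**
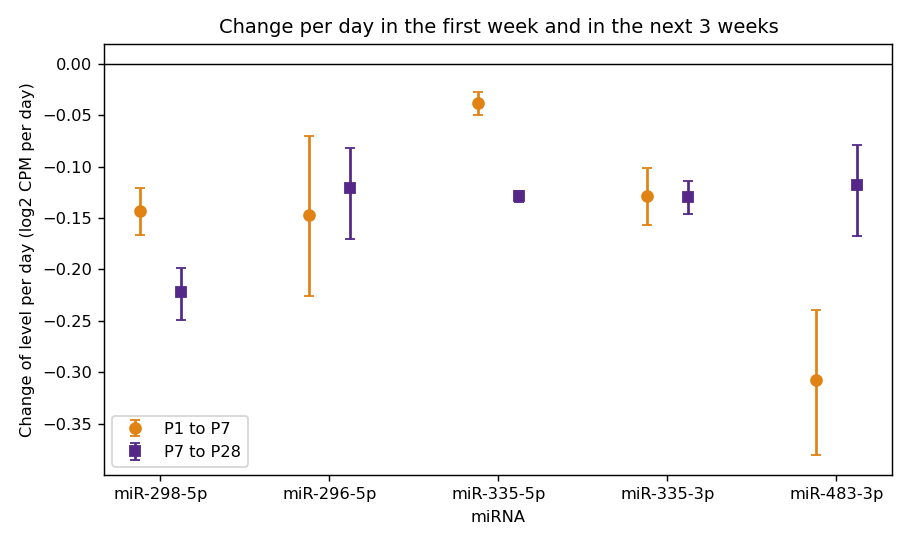
Change of level per day (log2 CPM per day, vertical axis) from P1 to P7 and from P7 to P28 for the 5 miRNAs above 10 CPM, with 95% intervals for counting error. miR-483-3p has its steeper fall in the first week, at -0.307 per day, and miR-335-5p in the later weeks, at -0.129 per day.

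Ratios between 2 miRNAs of the same library do not depend on the library's scale. All 10 pairs of the 5 miRNAs were compared in this way, each with an exact 95% interval of the difference in log2 ratio. Intervals that did not include 0 numbered 7 at P7 against P1, 6 when P28 was set against P1 and 4 when it was set against P7. They cover counting error only, with the variation between hearts left out, and were not adjusted for the number of pairs. Their counts are therefore a description and no test. The 4 at P28 against P7 were the 4 pairs that contain miR-298-5p, with differences between -2.14 and -1.95. The 4 pairs that contain miR-483-3p were all among the 7 of the first week, in which miR-483-3p changed more than each other miRNA by between 0.96 and 1.62 on the log2 scale. In the later step the differences between miR-296-5p, miR-483-3p and the arms of miR-335 lay between -0.20 and 0.13, with intervals that included 0. These intervals were wide for the less abundant miRNAs. That of miR-296-5p against miR-483-3p ran from -1.41 to 1.28, so for this pair unequal changes of about 2-fold were not detectable at this depth. That of miR-335-5p against miR-335-3p was narrower, from -0.33 to 0.38.

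miR-298-5p and miR-296-5p, whose hairpins are neighbours, had similar log2 ratios at P7 against P1 and different ones at P28 against P1. miR-298-5p held 91.4% of their joint reads in the P1 library (1047 of 1146, interval 89.6 to 92.9), 91.5% in the P7 library (731 of 799, 89.4 to 93.2) and 71.7% in the P28 library (33 of 46, 57.5 to 82.7). At P7 against P1 their log2 ratios differed by 0.02 (-0.46 to 0.51), and at P28 against P1 the value for miR-298-5p minus that for miR-296-5p was -2.06 (-3.08 to -0.96). The shift at P28 rests on 33 and 13 reads.

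For the arms of miR-335 the shares differed between the P1 and P7 libraries instead. With 1 library per age, a shift of the arms and a difference in capture between libraries cannot be told apart. miR-335-5p held 84.0% of the reads of both arms in the P1 library (3665 of 4361, 82.9 to 85.1), 88.5% in the P7 library (3957 of 4473, 87.5 to 89.4) and 88.6% in the P28 library (699 of 789, 86.2 to 90.6). In age order this was 5.27, 7.67 and 7.77 reads of the 5p arm for each read of the 3p arm. The log2 ratio of the 5p arm exceeded that of the 3p arm by 0.54 (0.36 to 0.72) at P7 against P1, and the arms differed by 0.02 (-0.33 to 0.38) in the later step. Within the H19 hairpin, the 5p arm had all 18 reads at P1 and 6 of 8 at P7 (75%, 40.9 to 92.9), which leaves a shift of its arms not detectable.

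**Figure D4:**
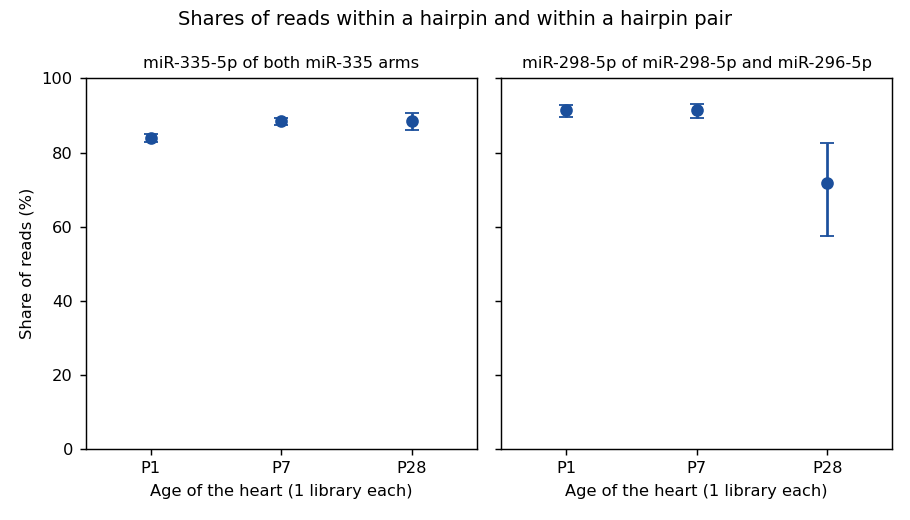
Share of reads (%) held by miR-335-5p among both arms of miR-335 (left) and by miR-298-5p among miR-298-5p and miR-296-5p (right) in the P1, P7 and P28 libraries, with 95% Wilson intervals. The miR-335-5p share rises from 84.0% to 88.5% between P1 and P7, and the miR-298-5p share drops from 91.5% to 71.7% between P7 and P28.

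Summed by locus, the level at P28 against P1 was 36.4-fold lower for the Gnas pair, 20.8-fold lower for miR-483-3p at Igf2 and 8.08-fold lower for the Mest pair. The Gnas sum is mostly miR-298-5p, and miR-296-5p by itself was 11.1-fold lower, near the 11.3-fold of miR-335-3p, with a difference in log2 ratio of 0.02 (-0.996 to 0.94). At P7 against P1 the same sums were 1.82-fold, 3.61-fold and 1.24-fold lower. At P7 against P1 the lowest ratios of the set were those of miR-483-3p and miR-675-5p, but miR-675-5p did not pass the abundance filter. Its P7 level was 3.80-fold lower, on 18 and 6 reads, with a log2 interval of -3.55 to -0.53. That interval holds the ratios of miR-298-5p, miR-296-5p and miR-335-3p, so its place in the order is not settled. Both arms of miR-675 summed, for H19, were 2.85-fold lower, with a log2 interval of -2.92 to -0.24.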

How the data were processed

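Small RNA of hearts was sequenced at P1, P7 and P28, with 1 library per age. Libraries were prepared with a NEBNext small RNA kit. The submitters' processing notes name bcl2fastq, TopHat and mm10, and for sequencing in general the study names TopHat2 and Bioconductor counting packages. The rule for reads with several matches, the use of strand and the miRBase release are not given in the sources used here. The deposited values are raw counts per accession made by the authors, without normalization, and columns were assigned to ages by their names.

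Each of the 7 accessions had 1 row, and no other row had counts within 1% of those of the 6 with at least 20 reads in all. The 7 miRNAs and the lists were chosen with earlier results of these data known. Accession numbers other than these 7 were not paired with names, so the planned lists (other arms of these hairpins, other imprinted clusters, seed relatives, nearest rows and cell type markers) were not analysed here. The rule for named miRNAs was to give all 7.

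Counts were divided by library totals, with a filter at a mean of 10 CPM, a pseudocount of 0.5 reads and a 2-fold threshold. With 1 library per age no test was made. No molecular identifiers are stated, so repeated copies of one molecule are counted as separate reads. The calculations were tested on simulated data. Alternatives were TMM (edgeR 4.0.16), DESeq2 1.42.0 size factors, totals without the 10 most abundant rows, a pseudocount of 5, filters at 1 CPM or none, ratios of 1.5 and 4, and rows of an accession summed with stem-loop rows left out. Rescalings kept the rows that passed by library totals. The software was Python 3.11.15 with scipy 1.17.1, numpy 2.4.6, pandas 2.3.3 and matplotlib 3.10.9, and R 4.3.3.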

Additional observations from a re-analysis of the deposited data

How the results depend on the processing

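Of the 54 counts of imprinted miRNAs under an alternative, 49 were within 1.5 times the value reported above. The 5 that did not were all at P7 against P1. There, 2 were lower with the filter at 1 CPM and 2 with no filter, which admit miR-675-5p. With no filter 1 was higher, which admits the 2 reads of miR-675-3p. At a ratio of 1.5, 4 were lower, and 0 at a ratio of 4. Over all rows, 14.4% of 526 were lower with the filter at 1 CPM. With no filter 21.8% of 945 rows were lower and 23.8% higher. Of the 317 rows, 24.3% were lower at a ratio of 1.5 and 0.63% at a ratio of 4. None of the log2 ratios of called miRNAs changed sign. The log2 ratios of the set were recomputed under the rescalings, the larger pseudocount and the summing of rows. Of these, 85 lay within the counting interval of the value by library totals and 20 lay outside it. Summing rows cannot change the shares, since each miRNA has 1 row.

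The background counts moved more. At P28 against P1, by library totals 39 rows were higher and 129 lower, against 76 and 83 under TMM and under DESeq2 size factors, 65 higher without the 10 most abundant rows, 79 and 226 at 1 CPM, 183 and 390 with no filter, 59 higher at a ratio of 1.5, and 10 and 65 at 4. At P28 against P7, 10 were higher and 124 lower, against 40 and 72 under TMM, 46 and 63 under DESeq2, 27 higher without the 10 rows, 42 and 213 at 1 CPM, 128 and 390 unfiltered, 32 higher at 1.5, and 4 and 45 at 4. At P7 against P1, 33 were higher and 37 lower, against 70 and 76 at 1 CPM, 225 and 206 unfiltered, 75 and 77 at 1.5, and 2 and 2 at 4.

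No paired analysis was possible because there was a single library per age, and for the same reason none was left out. At P28 miR-296-5p and miR-483-3p rest on 13 reads each.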
